A study of Mus musculus with 34 samples.

Results

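The genes described here encode the cytoplasmic ribosomal proteins, read as a housekeeping set against all other protein-coding genes in liver maps of HDAC3, PROX1 and HNF4α. Members were chosen by symbol alone: protein-coding genes whose names start with Rpl or Rps followed by a digit, a, p or sa, without the Rps6k kinases and without names ending in -ps or -rs. The rule found 85 of 22367 protein-coding gene records on the mm9 chromosomes. They comprised 42 genes of the large subunit, 31 of the small subunit, the 3 stalk genes *Rplp0*, *Rplp1* and *Rplp2*, 8 paralogues (*Rpl3l*, *Rpl7l1*, *Rpl10l*, *Rpl22l1*, *Rpl36al*, *Rpl39l*, *Rps27l* and *Rps4y2*), and *Rps19bp1*, which encodes a protein that binds RPS19 and is not itself part of the ribosome. The other 22282 records served as the comparison, and 55 of these carried -ps or -rs names derived from ribosomal protein genes.

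All livers came from male mice of strain C57B/6, 10 weeks old, collected at zeitgeber time 10. The design has 3 libraries for HDAC3 and 3 for PROX1, both made from control animals. A further 2 libraries map HNF4α in livers labelled HNF4A floxed, which in the study carried a hepatocyte-directed virus without Cre. Replicates were pooled by the authors before peaks were called, so each factor has 1 list and no spread between animals can be given. The lists hold 21247 HDAC3, 27423 PROX1 and 24253 HNF4α peaks. A co-bound peak has the same coordinates in the HDAC3 and PROX1 lists (20039 peaks), and the remaining 1208 and 7384 peaks are called HDAC3-only and PROX1-only. As a check of the tissue, all 8 hepatocyte marker genes had co-bound and HNF4α peaks within 10 kb of the transcription start site (TSS). Co-bound peaks lay near 0 of 4 bile duct, 0 of 4 stellate, 0 of 4 endothelial and 1 of 4 Kupffer and blood cell markers. HNF4α peaks lay near 1, 0, 0 and 0 of 4 in the same order. Among the 22282 comparison genes, 18.4% had a co-bound and 26.9% an HNF4α peak in this window. Low counts among 4 markers therefore say little about a cell type.

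Ribosomal proteins surround the ribosomal RNA of both subunits, and their genes are transcribed at high rates in nearly every cell. Their promoters usually lie in CpG islands, start transcription within a pyrimidine tract and often carry sites for ETS family factors and YY1. HNF4α is a nuclear receptor that directs hepatocyte gene expression, PROX1 is a homeobox protein of the hepatocyte lineage, and HDAC3 is the histone deacetylase of the NCoR corepressor complex. These genes therefore give a view of the 3 factors at loci that are not particular to the liver.

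At the promoters, few ribosomal protein genes were listed as bound. Of the 85 genes, 8 (9.41%, 95% CI 4.85 to 17.5) had a peak of any list centred within 1 kb of the TSS, and 77 had none, beside 2757 of 22282 other genes (12.4%). The ribosomal protein genes with such a peak included *Rpl36*, *Rpl10a*, *Rpl15*, *Rpl37*, *Rps10*, *Rps27l* and *Rpl7l1*, and the 10 peaks of the 8 genes were all centred upstream of the TSS, from 20 to 700 bp away. The sequences under 6 of these peaks are shown as examples of the binding sites listed at ribosomal protein promoters, 1 for each gene. Each is read in the direction of the gene. Capitals mark an exact match to CAAAGTCC, 1 form of the core of the HNF4α site, or a match with 1 mismatch, on either strand. Where a peak reached an annotated exon, only the stretch outside it is printed. In mm9 the stretches lie at chr17:56752019-56752218 on the plus strand (*Rpl36*), chr17:28464906-28465030 on the plus strand (*Rpl10a*), chr17:46920036-46920235 on the minus strand (*Rpl7l1*), chr14:19103906-19104002 on the minus strand (*Rpl15*), chr17:27773761-27773881 on the minus strand (*Rps10*) and chr9:66793730-66793892 on the plus strand (*Rps27l*).
Rpl36 co-bound: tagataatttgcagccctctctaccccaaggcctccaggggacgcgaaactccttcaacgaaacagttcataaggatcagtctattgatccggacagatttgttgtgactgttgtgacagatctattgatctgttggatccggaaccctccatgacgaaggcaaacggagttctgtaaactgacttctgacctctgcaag
Rpl10a HNF4α: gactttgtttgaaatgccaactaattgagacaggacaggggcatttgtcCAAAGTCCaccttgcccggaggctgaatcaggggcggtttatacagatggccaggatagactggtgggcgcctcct
Rpl7l1 PROX1-only: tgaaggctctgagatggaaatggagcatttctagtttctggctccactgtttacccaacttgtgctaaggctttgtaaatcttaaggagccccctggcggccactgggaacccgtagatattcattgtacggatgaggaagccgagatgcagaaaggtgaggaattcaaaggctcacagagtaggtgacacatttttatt
Rpl15 HNF4α: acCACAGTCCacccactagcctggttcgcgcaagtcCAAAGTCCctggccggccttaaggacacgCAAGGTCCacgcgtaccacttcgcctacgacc
Rps10 HNF4α: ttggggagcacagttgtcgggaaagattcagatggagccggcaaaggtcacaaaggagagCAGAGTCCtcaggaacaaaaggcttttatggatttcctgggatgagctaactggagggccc
Rps27l HNF4α: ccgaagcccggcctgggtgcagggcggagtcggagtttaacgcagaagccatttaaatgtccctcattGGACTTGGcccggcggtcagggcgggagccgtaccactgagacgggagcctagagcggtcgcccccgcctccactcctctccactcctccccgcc

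The *Rpl15* stretch held 1 exact match and 2 with 1 mismatch within 97 bases, and the *Rpl10a* stretch held 1 exact match. The stretches of *Rps10* and *Rps27l* held 1 match with 1 mismatch each, whereas those of *Rpl36* and *Rpl7l1* held none. Other forms of the HNF4α site were not searched, so letters left in lower case can still hold such a site. Among all HNF4α peaks within 10 kb of a ribosomal protein TSS, 20 of 48 (41.7%, 95% CI 28.8 to 55.7) held CAAAGTCC with at most 1 mismatch, close to 46.0% of the other 24205 HNF4α peaks. Such matches were common elsewhere, in 34.8% of other co-bound and 36.9% of other PROX1-only peaks. From 250 bp before to 50 bp after the TSS, 30.6% of ribosomal protein promoters and 23.1% of others held one. These stretches differ in length. A match with 1 mismatch therefore does not by itself mark an HNF4α site.

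*Rpl36*, a gene of the large subunit that spans 849 bp, was the only member with a co-bound peak at its promoter. The peak was centred 700 bp upstream, between genes, and an HNF4α peak with a score of 71.6 covered 167 of its 200 bases. The score is the authors' HOMER peak score and is taken here to rank peaks within the HNF4α list only, where the median is 41.9. *Rpl10a*, of the large subunit, had a PROX1-only peak centred 544 bp upstream, which overlapped by 67 bases an HNF4α peak centred 449 bp upstream (score 45.7). *Rpl7l1*, a paralogue of *Rpl7*, had a PROX1-only peak 530 bp upstream with no HNF4α peak on it. The other 5 genes had an HNF4α peak alone. The peak of *Rpl15* was centred 20 bp upstream of the TSS, within an intron of *Nkiras1* (score 54.2). The peaks of *Rps27l*, *Rps10* and *Rpl37* were centred 82, 247 and 630 bp upstream, with scores of 40.1, 27.3 and 20.3. The last is the lowest score in the HNF4α list. Across the 7 HNF4α peaks at promoters the median score was 44.3, and 4 of 7 lay above the list's median.

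By factor, the promoter shares differed most from those of other genes for HDAC3. Within 1 kb of the TSS, 1 of 85 ribosomal protein genes (1.18%, 95% CI 0.208 to 6.37) had an HDAC3 peak, beside 5.97% of other genes, and the same gene gave 1.18% for co-bound peaks, beside 5.07%. PROX1 peaks lay at 3 promoters (3.53%, 95% CI 1.21 to 9.87), beside 6.66%. PROX1-only peaks lay at 2 (2.35%), beside 1.92%, and HDAC3-only peaks at 0 (95% CI 0 to 4.32), beside 0.965%. HNF4α peaks lay at 7 promoters (8.24%, 95% CI 4.05 to 16.0), beside 9.39%. The interval of the ribosomal protein genes held the share of other genes for all of these classes, so that with 85 genes no difference at the promoter was larger than the counting error. These intervals cover counting error over genes and no difference between animals. A PROX1 peak without an HDAC3 peak lay at 2 promoters, and an HNF4α peak without an HDAC3 peak at 6 (7.06%, 95% CI 3.28 to 14.6), beside 5.57% of other genes.

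Within 10 kb the order was the opposite. At least 1 peak of any list was centred within 10 kb of 42 of 85 ribosomal protein TSSs (49.4%, 95% CI 39.0 to 59.8), beside 31.8% of other genes. HNF4α peaks lay near 34 members (40.0%, 95% CI 30.2 to 50.6), beside 26.9%, and PROX1 peaks near 32 (37.6%, 95% CI 28.1 to 48.3), beside 22.9%. Both intervals lay above the share of other genes. Among genes with a CpG-rich promoter (at least 50% GC and an observed to expected CpG ratio of at least 0.6 in 500 bp to either side) they did not. PROX1 peaks lay near 28 of 74 members (37.8%, 95% CI 27.6 to 49.2), beside 28.8%, and HNF4α peaks near 29 of 74 (39.2%, 95% CI 28.9 to 50.6), beside 34.9%. With HNF4α peaks above the list's median score alone, the share was 22.4% (95% CI 14.8 to 32.3), beside 15.6%. HDAC3 peaks lay near 21 members (24.7%, 95% CI 16.8 to 34.8), beside 19.9%, and co-bound peaks near 21 (24.7%), beside 18.4%. These intervals held the share of other genes. PROX1-only peaks lay near 14 members (16.5%, 95% CI 10.1 to 25.8), beside 9.37%, and HDAC3-only peaks near 1, *Rpl23a* (1.18%, 95% CI 0.208 to 6.37), beside 2.64%. A PROX1 peak with no HDAC3 peak in the window was seen for 11 members (12.9%, 95% CI 7.38 to 21.7), beside 4.38% of other genes.

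**Figure D1:**
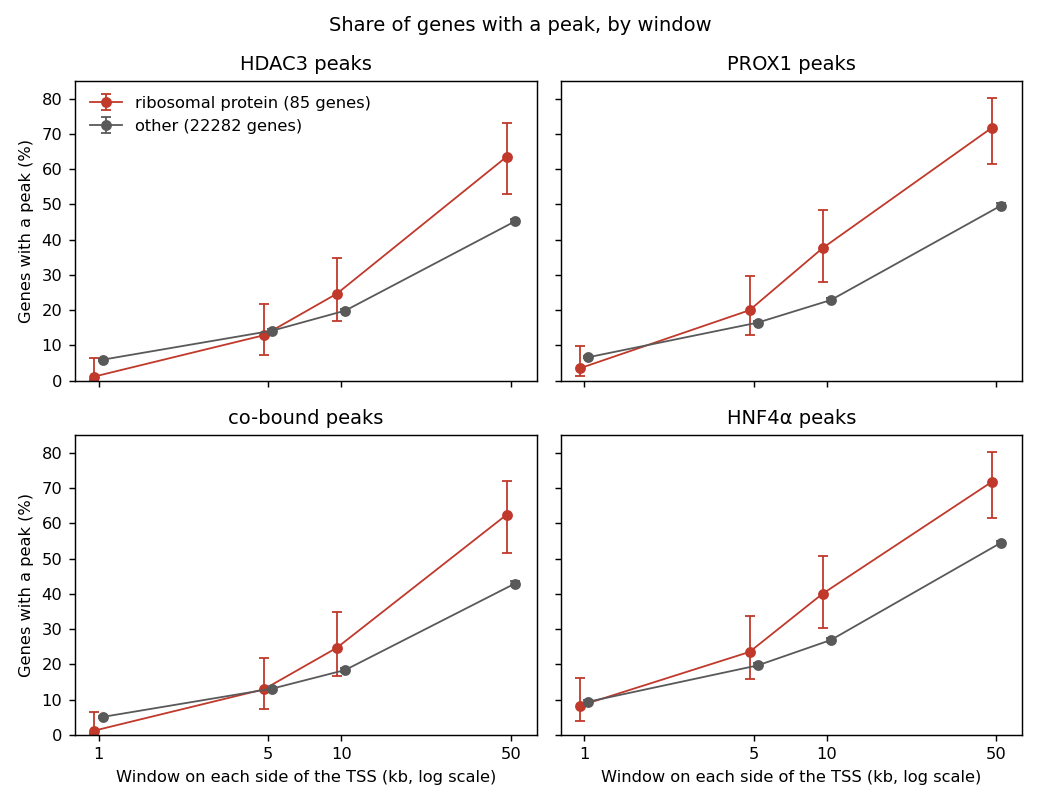
Share of genes with a peak centred within 1, 5, 10 or 50 kb of the TSS (x axis, log scale), for 85 ribosomal protein genes and 22282 other protein-coding genes; points are shares in percent and bars are 95% Wilson intervals. The ribosomal protein genes lie below the other genes at 1 kb and above them at 50 kb for each of HDAC3, PROX1, co-bound and HNF4α peaks.

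The change with distance is seen in the plot of shares by window. At 5 kb, 12.9% of ribosomal protein genes and 14.2% of other genes had an HDAC3 peak, and at 50 kb 63.5% (95% CI 52.9 to 73.0) and 45.2% did. For PROX1 they were 17 of 85 genes and 16.5% at 5 kb, and 71.8% (95% CI 61.4 to 80.2) and 49.6% at 50 kb. For HNF4α they were 23.5% and 19.7% at 5 kb, and 71.8% and 54.4% at 50 kb. Without a window, the median distance from a ribosomal protein TSS to the nearest peak was 36.6 kb for HDAC3 (quartiles 10.6 and 94.7), 16.2 kb for PROX1 (6.77 and 56.7), 37.9 kb for co-bound (10.6 and 98.9) and 16.2 kb for HNF4α (5.27 and 57.7). Other genes had medians of 61.4, 50.9, 68.5 and 40.3 kb. The farthest members were *Rpl36a* on the X chromosome, 3850 kb from an HDAC3 peak but 44.7 kb from a PROX1 peak, and *Rpl10l*, a paralogue on chromosome 12, 2860 kb from both. At the edge of the window, the outermost co-bound peak inside was 9.996 kb from the TSS of *Rps6*, and the nearest outside was 10.613 kb from that of *Rps27l*. For HNF4α the corresponding peaks were 9.769 kb from *Rps12* and 10.136 kb from *Rplp2*.

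**Figure D2:**
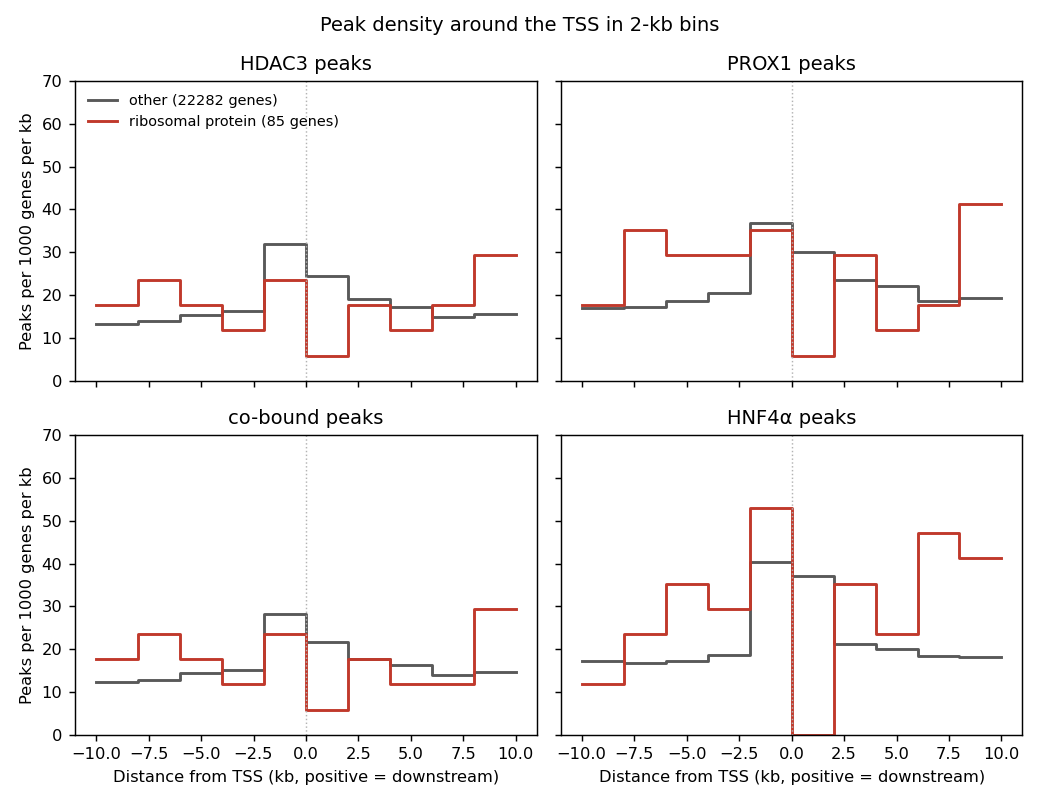
Peak density, in peaks per 1000 genes per kb, in 2-kb bins of distance from the TSS (positive values are downstream) for ribosomal protein genes and other protein-coding genes. In the first 2 kb downstream the ribosomal protein genes had 1 HDAC3 peak (5.88 per 1000 genes per kb) and 0 HNF4α peaks.

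HDAC3, PROX1 and co-bound peaks around other genes were denser within 1 kb of the TSS than beyond. Those around ribosomal protein genes were sparser there, with only 1 HDAC3, 3 PROX1 and 1 co-bound peak within 1 kb. HNF4α peaks were denser within 1 kb in both, with 7 peaks for ribosomal protein genes. The densities carry no interval, and the promoter shares given above differed by no more than the counting error. Within 1 kb of the TSS, co-bound peaks numbered 5.88 per 1000 genes per kb for ribosomal protein genes and 28.0 for other genes, while from 1 to 10 kb they numbered 18.3 and 15.5. For HNF4α the density was 41.2 and 51.1 within 1 kb, and 28.8 and 19.3 from 1 to 10 kb. Of the peak-gene pairs within 10 kb, 3.45% of the co-bound and 13.7% of the HNF4α pairs of ribosomal protein genes fell within 1 kb, beside 16.8% and 22.7% for other genes.

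In bins of 2 kb, HDAC3, PROX1, co-bound and HNF4α peaks around ribosomal protein genes were each sparsest in the first bin downstream of the TSS. The split by side was not among the planned results. In the first 2 kb downstream of the TSS, which takes in most of a typical ribosomal protein gene, 0 of 85 members had an HNF4α peak (95% CI 0 to 4.32), beside 6.93% of other genes. A PROX1 peak lay there in 1 of 85 (1.18%, 95% CI 0.208 to 6.37), beside 5.39%, and an HDAC3 peak in the same 1, beside 4.48%. This was the co-bound peak 1823 bp downstream of the TSS of *Rps18*. In the first 2 kb upstream the shares were 10.6% (95% CI 5.67 to 18.9) beside 7.50% for HNF4α, 7.06% beside 6.47% for PROX1 and 4.71% beside 5.69% for HDAC3. The upstream intervals held the share of other genes. The downstream interval lay below it for HNF4α and held it for HDAC3 and PROX1. Ribosomal protein genes have many processed copies elsewhere in the genome. In the first 2 kb downstream, 13.0% of 31-base words occurred more than once in mm9, beside 11.0% in the first 2 kb upstream. The downstream values were 4.89% for mitochondrial ribosomal proteins, 4.73% for proteasome subunits and 4.47% for translation factors. How reads with several matches were treated is not given in the sources used here, and the part of repeated sequence in the low downstream density was not tested.

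**Figure D3:**
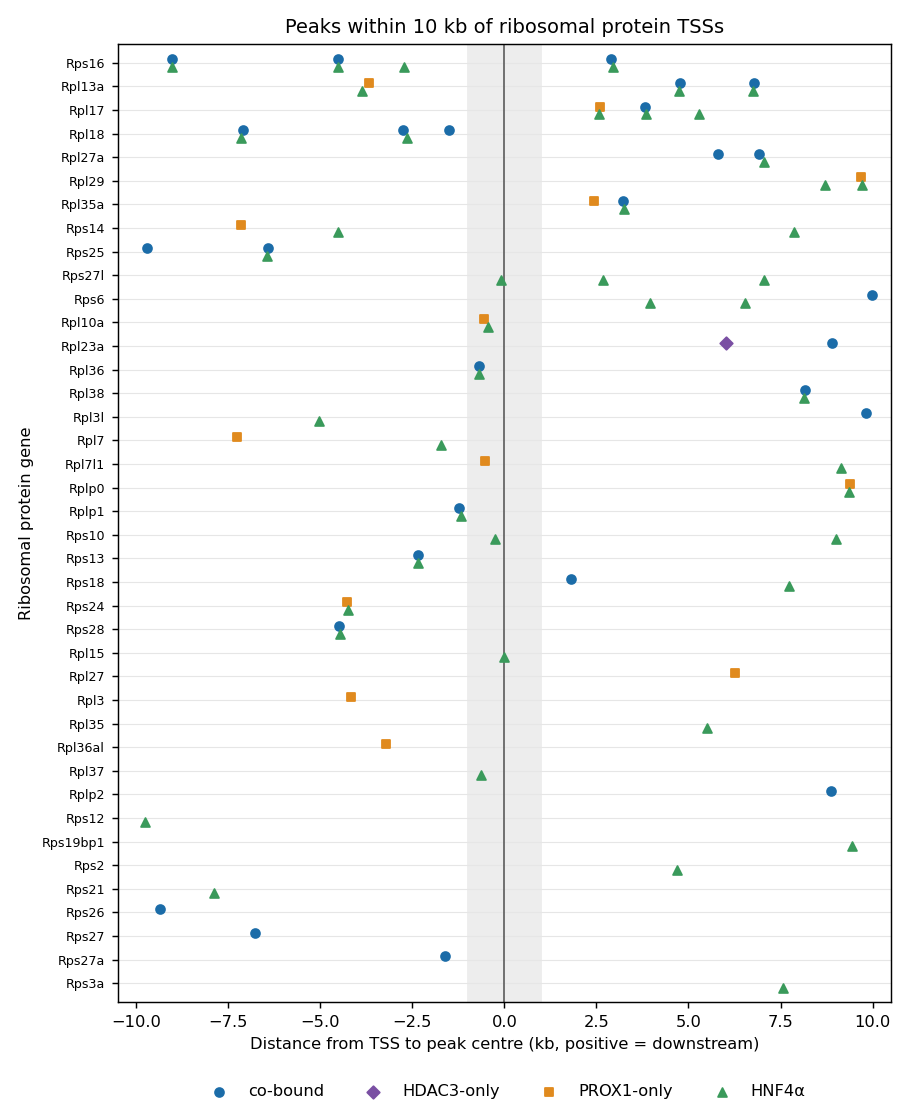
Peaks centred within 10 kb of the TSS of 40 of the 42 ribosomal protein genes that had any (rows), by distance from the TSS to the peak centre in kb, with co-bound, HDAC3-only, PROX1-only and HNF4α peaks as separate markers; the grey band marks 1 kb to either side. The band holds 9 peaks of 7 genes, all left of the TSS, and *Rps16* has 7 peaks, the most.

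Ribosomal protein genes had 1.12 peaks per gene within 10 kb, beside 0.928 for other genes, and many of these peaks lay closer to another gene. No peak lay within 10 kb of 43 members, 15 had 1 peak, 14 had 2, and 13 had 3 or more. The 95 peak-gene pairs came from 90 peaks, since neighbouring members, such as *Rps2* and *Rpl3l*, 9.71 kb apart, shared peaks. Of these 90 peaks, 44 (48.9%, 95% CI 38.8 to 59.0) were closer to the TSS of a gene that encodes no ribosomal protein. By class these were 13 of 27 co-bound, 8 of 14 PROX1-only, 22 of 48 HNF4α and the single HDAC3-only peak. The 90 peaks are not all separate sites, because overlapping peaks of different classes were each counted. Of the 48 HNF4α peaks, 16 touched a co-bound peak, and 6 of 14 PROX1-only peaks overlapped an HNF4α peak. The interval and the peaks per gene do not allow for this. By position, 42 peaks were centred between protein-coding genes, 38 within other genes (28 in introns, 5 in coding exons, 5 in UTRs) and 10 within a ribosomal protein gene. Nearest genes and positions were not counted for the peaks around other genes. Whether these shares are particular to ribosomal protein genes can therefore not be told. A member's own gene took up 19.1% of its 20-kb window on average.

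*Rps16*, of the small subunit, had the most peaks, with 3 co-bound and 4 HNF4α peaks. Its co-bound peaks were centred 9030 and 4522 bp upstream and 2898 bp downstream, each with an HNF4α peak on it, and the HNF4α scores were 98.9, 47.1 and 55.1. All lay between genes, and the outermost was nearer to *Supt5h*, an elongation factor gene. The peak nearest to the gene on its downstream side, at chr7:29138470-29138669 on the plus strand, is shown as an example of a co-bound site whose nearest start is a ribosomal protein gene, with a match of 1 mismatch to CAAAGTCC in capitals.
Rps16 co-bound: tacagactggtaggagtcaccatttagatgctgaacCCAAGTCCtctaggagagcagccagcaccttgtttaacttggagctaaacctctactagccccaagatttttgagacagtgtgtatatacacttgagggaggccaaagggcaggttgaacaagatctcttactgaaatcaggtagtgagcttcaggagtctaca

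*Rpl13a*, of the large subunit, had 2 co-bound peaks, 1 PROX1-only peak and 3 HNF4α peaks. The co-bound peaks lay 4767 and 6785 bp downstream in introns, and HNF4α peaks with scores of 27.3 and 23.1 covered 151 and 143 of their bases. *Rpl18*, of the large subunit, had 3 co-bound peaks. The outermost, 7096 bp upstream, lay in a coding exon of *Dbp*, a circadian transcription factor gene, with an HNF4α score of 73.0. The others, 2748 and 1501 bp upstream, lay in introns of *Sphk2*, a sphingosine kinase gene.

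Other members with at least 3 peaks showed both patterns. *Rps25* had co-bound peaks 9714 and 6421 bp upstream, both in introns of *Slc37a4*, the glucose-6-phosphate transporter gene, and the inner peak carried the highest HNF4α score near any member, 109.8. *Rpl29* had HNF4α peaks 8717 and 9720 bp downstream (scores 49.9 and 67.8) and a PROX1-only peak, nearest to *Acy1*, an aminoacylase gene. *Rpl35a* had a co-bound peak 3234 bp downstream, within an exon of its own record, with an HNF4α score of 67.8. *Rpl17* had 1 co-bound peak 3820 bp downstream with an HNF4α score of 66.0, a PROX1-only peak in its own intron and 3 HNF4α peaks. *Rpl27a* had co-bound peaks 5811 and 6919 bp downstream in introns of *St5*, and the farther one carried an HNF4α peak with a score of 42.4. *Rps6*, the substrate of S6 kinase, had HNF4α peaks 3968 and 6521 bp downstream (scores 21.7 and 22.1) and a co-bound peak at the edge of the window in an intron of *Dennd4c*, covered over 162 bases by an HNF4α peak with a score of 58.4. *Rps27l*, a paralogue induced by p53, had 3 HNF4α peaks with scores from 37.2 to 41.0 and no HDAC3 or PROX1 peak in the window. *Rps14* had 2 HNF4α peaks and 1 PROX1-only peak, none overlapping.

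*Rplp0* (*Arbp* or *36b4*), which encodes the stalk protein P0, served as the housekeeping gene for qPCR in the study, which also lists a primer pair at this gene for sequential ChIP. The pair is shown because it marks where the study sampled a ribosomal protein locus. In mm9 the forward primer lies at chr5:116011022-116011041 on the plus strand and the reverse primer at chr5:116011100-116011119 on the minus strand, an amplicon of 98 bp in *Rplp0* that starts 1546 bp downstream of the TSS and overlaps annotated exon sequence.
Rplp0 forward primer: ctgggacgatgaatgaggat
Rplp0 reverse primer: agcagctggcacctaaacag

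The nearest listed peaks to the amplicon were 17.6 kb away for HDAC3, 7.78 kb for PROX1 and 7.77 kb for HNF4α. Within 10 kb of the *Rplp0* TSS there was 1 PROX1-only peak, 9373 bp downstream, which an HNF4α peak with a score of 92.8 overlapped by 162 bases. Both lay in an intron of *Gcn1l1*, a translational control gene, 3586 bp from its TSS. Of the other stalk genes, *Rplp1* had a co-bound peak 1228 bp upstream with an HNF4α score of 25.4, and *Rplp2* had a co-bound peak 8883 bp downstream in an intron of *Pnpla2*, the adipose triglyceride lipase gene.

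The 43 members without any peak within 10 kb were 26 genes of the large subunit (among them *Rpl4*, *Rpl5*, *Rpl6*, *Rpl7a*, *Rpl8*, *Rpl9*, *Rpl10*, *Rpl11*, *Rpl12*, *Rpl13*, *Rpl14*, *Rpl19*, *Rpl21*, *Rpl22*, *Rpl23*, *Rpl24*, *Rpl26*, *Rpl28*, *Rpl30*, *Rpl31*, *Rpl32*, *Rpl34*, *Rpl36a*, *Rpl37a* and *Rpl39*), 13 of the small subunit (among them *Rps3*, *Rps4x*, *Rps7*, *Rps9*, *Rps15*, *Rps15a*, *Rps19*, *Rps20*, *Rps23*, *Rps29* and *Rpsa*) and the paralogues *Rpl10l*, *Rpl22l1*, *Rpl39l* and *Rps4y2*. Co-bound peaks lay within 10 kb of 8 of 42 genes of the large subunit (95% CI 9.98% to 33.3%) and 10 of 31 of the small subunit (95% CI 18.6% to 49.9%). HNF4α peaks lay near 13 of 42 (95% CI 19.1% to 46.0%) and 15 of 31 (95% CI 32.0% to 65.2%). The intervals of the subunits overlapped for both. The rest of the members with co-bound peaks were *Rplp1*, *Rplp2* and *Rpl3l*, a muscle paralogue whose peak, 9814 bp downstream, was nearest to *Sepx1*. By chromosome, all 8 members on chromosome 17 had a peak within 10 kb and 4 of these had one within 1 kb, beside 32.5% and 11.8% of the other genes on that chromosome. None of the 4 members on the X chromosome had a peak in the window, beside 9.05% of its other genes with one. The chromosomes were singled out after their values were seen.

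Ribosomal protein genes lie in denser surroundings than other genes. No TSS of another protein-coding gene lay within 10 kb of 41 of 85 members (48.2%), beside 70.8% of other genes, and the mean number of such neighbours was 0.765 and 0.373. Among genes without a neighbour, HDAC3 peaks lay within 10 kb of 7 of 41 members (17.1%, 95% CI 8.53 to 31.3), beside 18.4%, and co-bound peaks near the same number, beside 17.2%. PROX1 peaks lay near 10 of 41 (24.4%, 95% CI 13.8 to 39.3), beside 21.3%, and HNF4α peaks near 13 of 41 (31.7%, 95% CI 19.6 to 47.0), beside 23.8%. Each of these intervals held the share of other genes. Among genes with 1 neighbour, PROX1 peaks lay near 16 of 31 members (51.6%, 95% CI 34.8 to 68.0), beside 26.6%, and HNF4α peaks near 14 of 31 (45.2%, 95% CI 29.2 to 62.2), beside 33.0%. PROX1-only peaks lay near 3 of 41 members without a neighbour (7.32%, 95% CI 2.52 to 19.4), beside 8.69%, and near 10 of 31 with 1 neighbour (32.3%, 95% CI 18.6 to 49.9), beside 11.2%. The excess of PROX1 over the other genes was 3.1 percentage points in genes without a neighbour and 14.7 in all genes. Counting a peak only for the gene with the nearest TSS left 17 of 85 ribosomal protein genes with a PROX1 peak (95% CI 12.9% to 29.7%), beside 19.4%, and 19 of 85 with an HNF4α peak (22.4%, 95% CI 14.8 to 32.3), beside 22.4%.

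**Figure D4:**
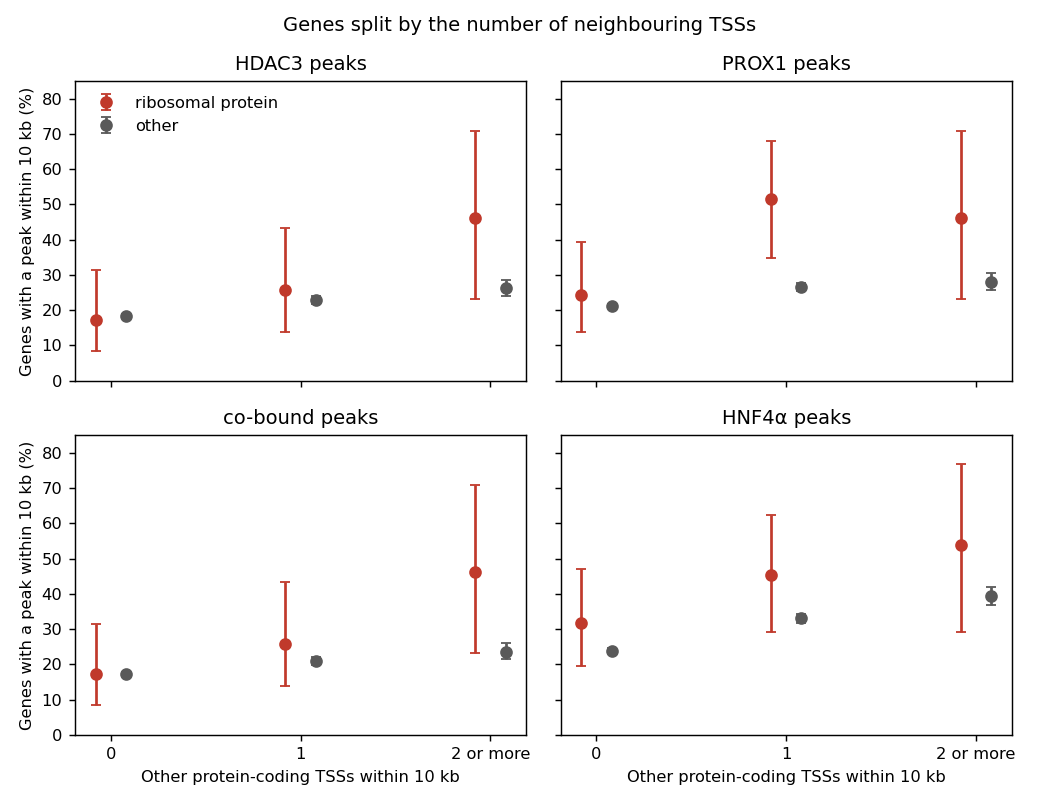
Share of genes with a peak within 10 kb of the TSS (y axis, percent, with 95% Wilson intervals) for ribosomal protein and other genes, split by how many other protein-coding TSSs lie within 10 kb (0, 1, or 2 or more). In genes without a neighbour, the shares for HDAC3 were 17.1% and 18.4%.

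At co-bound peaks near ribosomal protein genes, HNF4α peaks were present at a share whose interval held that of other co-bound peaks. An HNF4α peak covered at least 50% of 15 of 27 (55.6%, 95% CI 37.3 to 72.4), beside 61.3% of the other 20012 co-bound peaks and 59.1% of those within 10 kb of another protein-coding TSS. At PROX1-only peaks the shares were 5 of 14 (35.7%, 95% CI 16.3 to 61.2) and 36.7%. Of the 41 PROX1 peaks near ribosomal protein genes, 27 were co-bound (65.9%, 95% CI 50.5 to 78.4), beside 74.8% of PROX1 peaks near other genes only. The 48 HNF4α peaks had scores from 20.3 to 109.8 with a median of 42.4, beside a median of 41.9 for the list, and 25 lay above the list's median. Of these 48 peaks, 16 (33.3%) touched a co-bound peak, a lower share than the 50.3% of the HNF4α peaks near other genes only. No interval was computed for this share.

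The promoters themselves were mostly CpG-rich, and some carried an ETS or YY1 core. The pyrimidine tract was not searched. A CpG-rich promoter was found for 74 of 85 members (87.1%, 95% CI 78.3 to 92.6), beside 44.0% of other genes. Motifs were searched as exact letters on both strands from 250 bp before to 50 bp after the TSS, and no motif here contains another. The ETS core CCGGAAG was present in 24 of 85 promoters (28.2%, 95% CI 19.8 to 38.6), beside 10.7% of others and 10.8% of all. The YY1 core AAGATGGC was present in 6 (7.06%, 95% CI 3.28 to 14.6), beside 3.28% of others and 3.30% of all. CACGTG, the E-box, was present in 9 (10.6%, 95% CI 5.67 to 18.9), beside 7.77%, and the TATA box TATAAA in 10 (11.8%, 95% CI 6.52 to 20.3), beside 13.4%. The C/EBP letters TTGCNNAA were present in 7 (8.24%, 95% CI 4.05 to 16.0), beside 10.3%. The HNF4α letters CAAAGTCC were present in 3, *Rpl11*, *Rpl15* and *Rpl22l1* (3.53%, 95% CI 1.21 to 9.87), beside 1.47% of others and 1.48% of all. Of these genes, *Rpl15* was the only 1 with an HNF4α peak within 1 kb. Other forms of the HNF4α site were not searched. The interval lay above the share of other promoters for ETS, and for YY1 its lower bound equalled that share to 3 digits. In 500 bp to either side of the TSS the interval lay above the share of others for ETS (47.1%, 95% CI 36.8 to 57.6, beside 4224 of 22282 others), YY1 (16.5%, 95% CI 10.1 to 25.8, beside 7.78%) and the E-box (27.1%, 95% CI 18.8 to 37.3, beside 17.0%). The ETS core and the E-box each contain a CpG. Motif shares were not compared among CpG-rich promoters alone, so the part of base composition in these differences was not tested.

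Among members with at least 3 peaks whose upstream 150 bp were read, the ETS core was present in *Rpl27a*, *Rps25* and *Rps6*. These stretches are shown because these promoters had no listed peak although peaks lay within 10 kb, with the ETS core in capitals. In mm9 they lie at chr7:116662511-116662660 on the plus strand, chr9:44215647-44215796 on the plus strand and chr4:86503317-86503466 on the minus strand.
Rpl27a: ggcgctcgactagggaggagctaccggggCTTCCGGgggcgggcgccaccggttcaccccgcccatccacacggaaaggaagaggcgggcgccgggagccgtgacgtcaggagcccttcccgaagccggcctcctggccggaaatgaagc
Rps25: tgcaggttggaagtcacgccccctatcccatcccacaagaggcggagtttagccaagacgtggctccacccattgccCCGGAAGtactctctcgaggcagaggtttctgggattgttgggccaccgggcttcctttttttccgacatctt
Rps6: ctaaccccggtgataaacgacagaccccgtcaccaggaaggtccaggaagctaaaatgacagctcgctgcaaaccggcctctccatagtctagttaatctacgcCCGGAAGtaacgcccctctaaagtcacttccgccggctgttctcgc

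Under the peaks near ribosomal protein genes, the C/EBP letters were present in 9 of 27 co-bound peaks (33.3%, 95% CI 18.6 to 52.2), beside 26.1% of other co-bound peaks, and in 0 of 14 PROX1-only peaks (95% CI 0 to 21.5), beside 22.9%. The PROX1-only interval lay below the share of the other peaks of that class. The ETS core was present in 2 of 48 HNF4α peaks (4.17%, 95% CI 1.15 to 14.0), beside 0.797%, a share below the interval. Every motif of the promoter search was looked for in co-bound, PROX1-only and HNF4α peaks, a step outside the planned results. For all other pairs of motif and class the interval held the share of the other peaks. Those other peaks were not limited to peaks near a TSS.

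At the promoter, the intervals of the other housekeeping lists overlapped those of the ribosomal protein genes. Co-bound peaks lay within 1 kb of 2 of 77 genes of mitochondrial ribosomal proteins (2.60%, 95% CI 0.715 to 8.98), 2 of 74 of oxidative phosphorylation subunits (2.70%), 0 of 41 of proteasome subunits (95% CI 0 to 8.57), 4 of 67 of translation factors (5.97%) and 3 of 50 of ribosome biogenesis factors (6.00%). HNF4α peaks lay within 1 kb of 12 of 77 (15.6%, 95% CI 9.15 to 25.3), 10 of 74 (13.5%), 4 of 41 (9.76%), 11 of 67 (16.4%) and 8 of 50 (16.0%) in the same order, all above the 8.24% of ribosomal protein genes, with intervals that overlapped. Within 10 kb, co-bound peaks lay near 12 of 77, 6 of 74, 10 of 41, 13 of 67 and 10 of 50 genes of these lists, beside 24.7% of ribosomal protein genes. The oxidative phosphorylation genes (8.11%, 95% CI 3.77 to 16.6) stood below the ribosomal protein genes (95% CI 16.8 to 34.8), without overlap of the intervals. HNF4α peaks lay within 10 kb of 41.6%, 33.8%, 34.1%, 35.8% and 30.0% of the lists in the same order, beside 40.0% of ribosomal protein genes. All of these shares were above the 26.9% of genes outside the ribosomal protein set. Among the other lists, only the interval of the mitochondrial ribosomal proteins (95% CI 31.2 to 52.7) lay above 26.9%. The intervals of the oxidative phosphorylation, proteasome, translation factor and ribosome biogenesis lists held it. The genes with the most peaks in each list were *Mrpl12* (6), *Uqcrq* (8), *Psmb9* (in each of its gene records) and *Psmd9* (6), *Eif1* (7), and *Gar1* and *Imp3* (6), and *Rps16* had 7. Among other parts of the ribosome, *Gnb2l1*, which encodes RACK1, had 1 co-bound peak within 1 kb and *Fau* had 1 HNF4α peak within 10 kb. In contrast, co-bound peaks lay within 1 kb of 7 of 13 apolipoprotein genes (53.8%, 95% CI 29.1 to 76.8) and within 10 kb of 12, with the most peaks at *Apoc1* (12), *Apoc2* (10) and *Apoc4* (10). The interval of the apolipoproteins at 1 kb did not overlap that of the ribosomal protein genes (0.208 to 6.37). Only 7.69% of the apolipoprotein genes had no other protein-coding TSS within 10 kb, beside 48.2% of ribosomal protein genes. Windows of neighbouring genes can share peaks, and the intervals count each gene as separate.

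**Figure D5:**
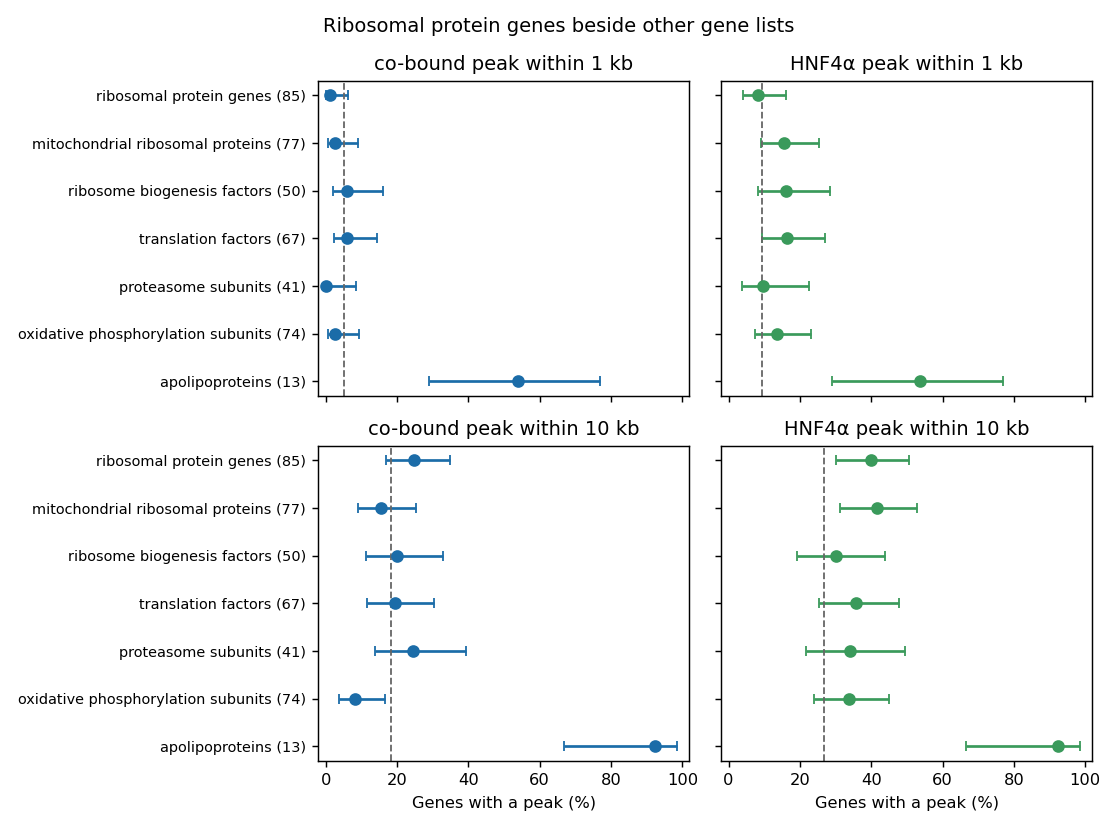
Share of genes with a co-bound or an HNF4α peak within 1 kb (top) and 10 kb (bottom) of the TSS in 7 gene lists, with 95% Wilson intervals; the dashed line is the share of all protein-coding genes that are not ribosomal protein genes, and list sizes stand in brackets. The ribosomal protein genes sit at 1.18% and 8.24% within 1 kb, and the apolipoproteins at 53.8% for both classes.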

How the data were processed

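ChIP-seq of HDAC3, PROX1 and HNF4α in mouse liver was analysed from the peak lists. Reads had been mapped to mm9 by the authors (Bowtie 0.12.7), who removed duplicates, pooled the replicates and used HOMER to find peaks over an IgG input, with limits on enrichment and on normalized reads. The limit on normalized reads was lower for HDAC3 than for PROX1 and HNF4α. The HDAC3-only and PROX1-only classes therefore depend on unlike limits. They deposited peak positions, and for HNF4α a score per peak, taken as the HOMER peak score. The scale of the score is not named in the list, and no list gives counts, so the depth is unknown.

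Positions were set against GENCODE vM1 genes on NCBIM37, which is mm9. The TSS was the 5′ end of the gene record, and a peak counted when centred within 10 kb, or 1 kb for a promoter. Intervals are 95% Wilson intervals of counting error, and no test was run across genes. Named were all members with a peak within 1 kb, the 10 with the most peaks within 10 kb (ties kept), those without peaks, *Rplp0*, and the leading genes of the other lists. Members and lists were chosen with earlier results of these data known. The counting was tested on simulated peaks. Python 3.11.15, numpy 2.4.6, pandas 2.3.3, pysam 0.24.0 and matplotlib 3.10.9 were used. A few genes are counted in the totals but not reported here by name. Expression data were not analysed here.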

Additional observations from a re-analysis of the deposited data

How the results depend on the processing

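Of 92 alternatives, 72 were counted as leaving the value the same. For shares this meant a value within the interval of the reported one and an unchanged sign. For distances the sign was unchanged and the median stayed within a set ratio of the reported one. For HNF4α scores the median stayed within the reported quartiles. The values given here are the share of ribosomal protein genes, or of peaks near them, minus that of the others, in percentage points. Within 10 kb, HDAC3 went from 4.8 to -2.0 with CpG-rich promoters only, -1.3 in genes without a neighbour, -1.3 with a window of 5 kb, 18.3 with 50 kb and -3.8 when a peak counted only for the nearest TSS. Co-bound went from 6.3 to -0.1, -0.1, -0.1, 19.4 and -2.6 in the same order. PROX1 went from 14.7 to 3.1 in genes without a neighbour, 3.5 with 5 kb and 0.6 for the nearest TSS, and HNF4α from 13.1 to -0.1 for the nearest TSS. With CpG-rich promoters only, PROX1 and HNF4α gave 9.0 and 4.3, and above the median score HNF4α gave 6.7, with intervals that then held the share of other genes. Within 1 kb, genes without a neighbour gave -5.9 for HDAC3 (from -4.8) and -5.1 for co-bound (from -3.9). With HNF4α peaks above the median score, the HNF4α difference within 1 kb went from -1.2 to 0.5, and that of HNF4α at co-bound peaks from -5.8 to 4.4. In promoters of 500 bp to either side, ETS went from 17.5 to 28.1, YY1 from 3.8 to 8.7, the E-box from 2.8 to 10.1 and the TATA box from -1.7 to -9.8. Leaving out records with -ps or -rs names from the comparison, an alternative chosen after seeing the data, moved no value by more than its interval. The causes were not tested beyond what each alternative changes by construction.

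Libraries were pooled in the lists, and no run without a single animal was made. No paired analysis was possible because each factor has 1 pooled list and no result comes from a test. With 85 genes, 1 gene moves a share by about 1 percentage point, and the intervals at 1 kb are wider than the shares themselves.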
